A study of Mus musculus with 4 samples.

Results

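Acute-phase proteins are blood and surface proteins whose synthesis changes during inflammation, and 10 genes of this response were followed through the cells of cytokine-treated mouse islets: Lcn2, Lrg1, Fga, Fgb, Fgg, Chil1, Steap4, Hp, Hamp and Saa3. They are 10 of the 31053 genes in the count matrices and were found there by symbol. Several were chosen from measured values, as leading genes of treated β- and α-cells, so their changes in those cells are described here and not tested. Islets isolated from male C57BL/6 mice (C57BL6/J in the methods of the paper) were pooled and divided. The parts were cultured for 6 h with no addition, with the cytokine IL-1β, with the cytokine IFN-γ or with both. The dispersed cells of each culture gave 1 scRNA-seq library. The 4 libraries held 3486, 2911, 3694 and 2480 cell barcodes in the order untreated, IL-1β, IFN-γ and both, with 50731370, 20056630, 31209339 and 25716645 UMIs (unique molecular identifiers, each standing for 1 captured RNA molecule). With 1 library per condition, a difference between conditions has no replicate check, and the 95% intervals below, exact Poisson for levels and exact binomial for shares of cells, cover counting error only.

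In the liver, IL-1-type and IL-6-type cytokines raise a common program of secreted proteins, largely through NF-κB, C/EBP and STAT3. Some of these proteins bind microbial products or iron, some form the clot, and hepcidin, the product of Hamp, blocks the export of iron from cells. Pancreatic islets hold hormone-secreting β-, α-, δ- and PP-cells, and these carry receptors for IL-1β and IFN-γ.

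Barcodes outside 200 to 4000 genes, or with over 12% of UMIs from mitochondrial genes, were dropped, which left 1521, 2018, 2122 and 1810 cells. A cell counted as β-, α-, δ- or PP-like when hormone transcripts made up at least 5% of its UMIs and insulin, glucagon, somatostatin or pancreatic polypeptide RNA made up at least 80% of these, so no acute-phase gene took part in the naming. This gave 4905 β-like, 844 α-like, 192 δ-like and 164 PP-like cells, with 558 cells of mixed hormones, and 147 macrophage-like, 133 endothelial-like, 77 ductal-like and 61 mesenchymal-like cells named from marker genes. The untreated library was the deepest, with a median of 17175 UMIs per β-like cell against 8370, 11086 and 12250 in the IL-1β, IFN-γ and combined libraries. Shares of β- and α-like cells are therefore also given, for most genes, after every cell was thinned to 4000 UMIs. Barcodes shared between libraries numbered 16 over all 6 pairs of libraries, 4 of them among kept cells.

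Of the 10 genes, 9 had enough UMIs to be compared in endocrine cells, and their levels are the UMIs of a gene summed over a cell class per 1000000 UMIs of that class (CPM). In β-like cells, 9 of the 9 genes with at least 10 UMIs over the pair of libraries were at least 2-fold above untreated with IL-1β and 9 of 9 with both cytokines, while over all genes 18.7% of 13125 and 12.7% of 13216 were this high. Hormone RNA differed between the β-like libraries, and over all genes the median log2 fold was 0.34 under IL-1β, 0.30 under IFN-γ and -0.01 under both, or -0.09, -0.01 and -0.21 with hormones left out of the totals. With IFN-γ alone 2 of 7, Lrg1 and Steap4, reached this fold, against 7.61% of 13168 genes, and Fga and Chil1 were at least 2-fold below untreated. In α-like cells 7 of 7 were at least 2-fold higher under IL-1β, 2 of 5 under IFN-γ and 7 of 7 under both, against 10%, 8.32% and 10.4% of genes. After thinning these counts were 6, 0 and 5, with Fgg not counted in any of the 3 treated libraries and Saa3 not counted under both. For these 2 genes thinning left untreated at 0 UMIs, set to 3, so their thinned folds are lower bounds and do not show values below 2-fold. Without the richest cell of each library the count under both was also 5, without the same 2 genes. There the Fgg fold of 1.67 is a lower bound over 0 untreated UMIs, and Saa3 under both was left with 0 UMIs. Genes with few untreated UMIs passed the minimum of 10 only through the treated library and so had to be higher there. Of the genes with at least 10 untreated UMIs, 7 of 7 in β-like cells were at least 2-fold higher under IL-1β and 7 of 7 under both, against 15.4% and 9.56% of 12309 genes. In α-like cells these were Fgb and Hamp, 2 of 2 under IL-1β and under both, against 4.58% and 5.48% of 7756 genes, and 0 of 2 under IFN-γ. Without the upper gene limit Fgb under IL-1β went from 2.70- to 1.75-fold in α-like cells. Since the genes were picked with these contrasts known, the counts say nothing beyond what the choice put there, and the levels, the cells that hold them and the difference between cell types are described below.

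**Figure D1:**
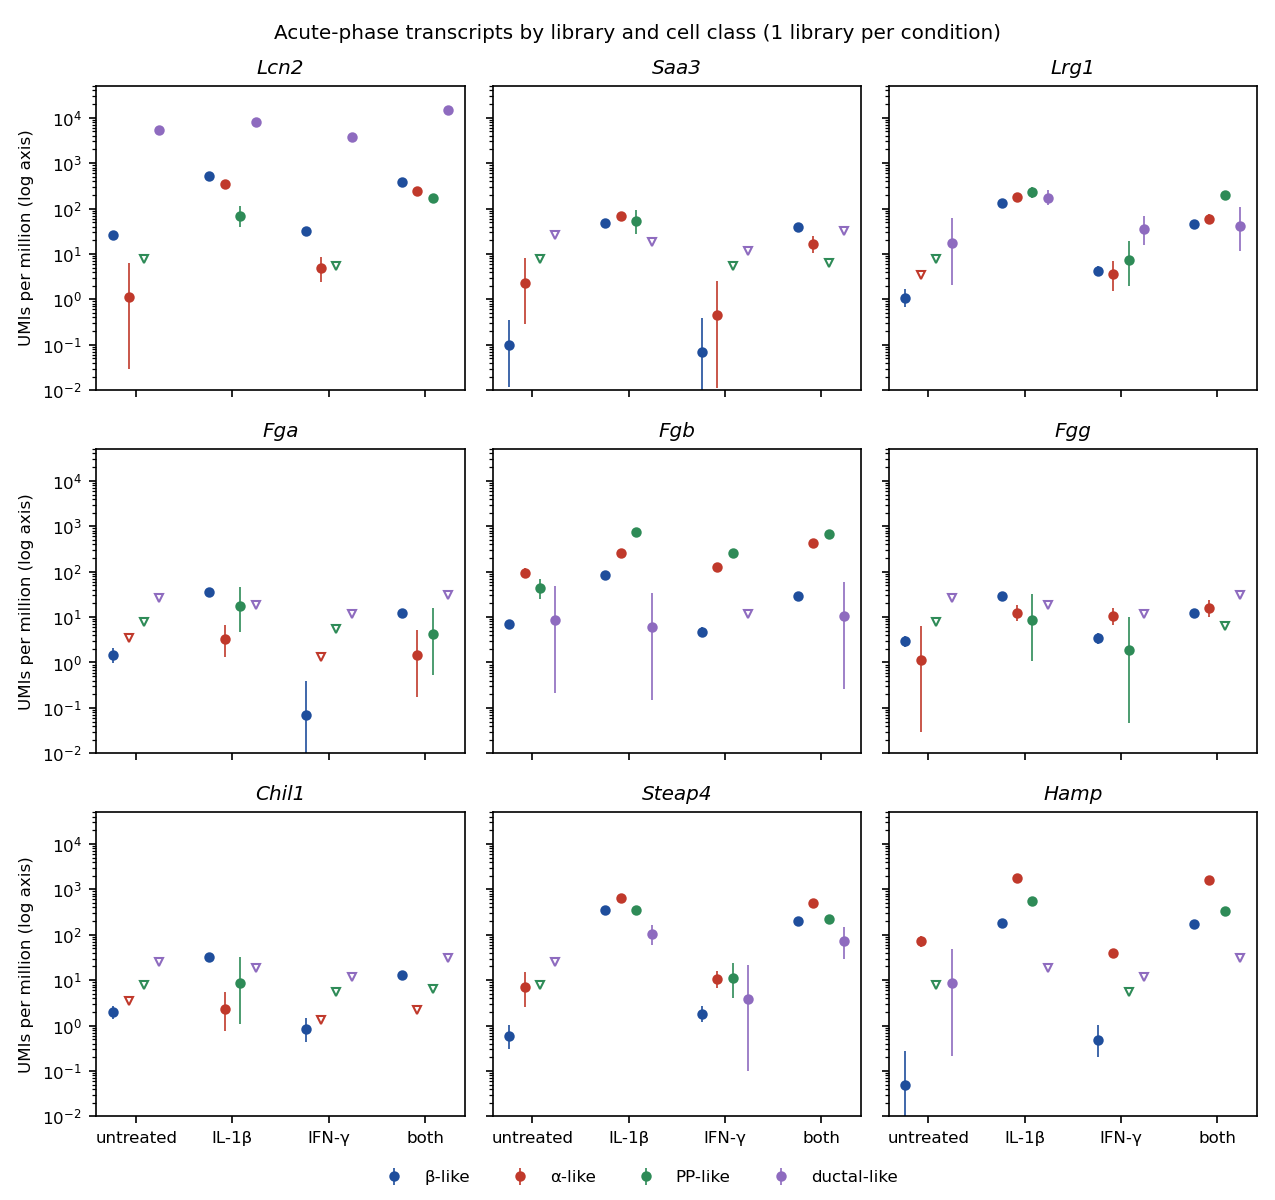
Summed UMIs per 1000000 (CPM, log axis) of 9 acute-phase genes in the 4 libraries, for β-like, α-like, PP-like and ductal-like cells. Bars are 95% Poisson intervals, open triangles are libraries with 0 UMIs drawn at the level of 3 UMIs. In β-like cells all 9 genes were higher with IL-1β and with both cytokines than untreated, Hamp and Fgb were higher in α- than in β-like cells, and Lcn2 was highest in ductal-like cells of every library.

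The 300 bases around the start of 5 of these genes, 250 before and 50 after it, are shown because they can be read against the shared and separate patterns described below. They are RefSeq promoters of build GRCm38.p6, given 5′ to 3′ on the strand of the gene, and 9 of the 10 genes had an entry, Hp being the one without. Capitals mark matches to NF-κB (the κB consensus), C/EBP (TTGCNNAA), STAT (TTCNNNGAA) or ISRE-core (GAAANNGAA) letters on either strand. The windows are chr2:32387690-32387989 on the minus strand for Lcn2, chr7:46715627-46715926 on the minus strand for Saa3, chr3:83049814-83050113 on the minus strand for Fgb, chr5:7960222-7960521 on the plus strand for Steap4 and chr7:30943980-30944279 on the minus strand for Hamp.
Lcn2: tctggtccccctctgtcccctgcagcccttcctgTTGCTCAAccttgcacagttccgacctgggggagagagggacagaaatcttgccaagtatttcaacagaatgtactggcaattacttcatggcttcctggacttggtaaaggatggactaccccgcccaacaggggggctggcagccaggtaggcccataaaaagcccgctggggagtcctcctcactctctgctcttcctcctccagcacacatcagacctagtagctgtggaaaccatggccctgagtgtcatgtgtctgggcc
Saa3: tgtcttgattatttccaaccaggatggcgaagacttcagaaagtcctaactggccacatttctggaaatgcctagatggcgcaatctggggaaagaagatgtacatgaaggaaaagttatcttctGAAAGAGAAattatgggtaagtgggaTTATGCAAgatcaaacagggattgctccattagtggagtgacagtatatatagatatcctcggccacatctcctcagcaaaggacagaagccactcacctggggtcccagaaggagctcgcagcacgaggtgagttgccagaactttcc
Fgb: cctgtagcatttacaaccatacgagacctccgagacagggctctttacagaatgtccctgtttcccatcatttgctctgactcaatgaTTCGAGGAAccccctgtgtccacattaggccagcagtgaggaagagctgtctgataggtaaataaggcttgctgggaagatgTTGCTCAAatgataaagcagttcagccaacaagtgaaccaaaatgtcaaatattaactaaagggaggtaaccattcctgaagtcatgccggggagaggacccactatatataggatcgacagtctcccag
Steap4: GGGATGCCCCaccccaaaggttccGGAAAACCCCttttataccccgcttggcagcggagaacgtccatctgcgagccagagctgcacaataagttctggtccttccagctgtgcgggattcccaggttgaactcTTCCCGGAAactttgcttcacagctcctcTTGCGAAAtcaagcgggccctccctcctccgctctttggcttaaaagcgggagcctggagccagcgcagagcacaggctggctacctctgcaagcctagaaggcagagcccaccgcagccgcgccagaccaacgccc
Hamp: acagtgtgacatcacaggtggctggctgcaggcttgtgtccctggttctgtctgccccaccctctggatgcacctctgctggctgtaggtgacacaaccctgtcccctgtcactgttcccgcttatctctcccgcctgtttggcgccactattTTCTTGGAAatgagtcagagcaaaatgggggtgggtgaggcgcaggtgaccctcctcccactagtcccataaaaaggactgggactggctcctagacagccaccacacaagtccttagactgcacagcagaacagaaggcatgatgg

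The C/EBP letters occurred in 5 of the 9 windows (Lcn2, Fga, Fgb, Steap4 and Saa3), against 10.8% of all 32851 promoters of this length. STAT letters occurred in 4 of 9 (Fga, Fgb, Steap4 and Hamp) against 8.30%, κB letters in 2 of 9 (Chil1 and Steap4) against 8.46%, and ISRE-core letters in 1 of 9 (Saa3) against 8.56%. Steap4 held matches to κB, C/EBP and STAT letters, its κB matches beginning 250 and 226 bases, its C/EBP match 87 bases and its STAT match 116 bases before the start, and Lrg1 and Fgg held none of the 4. No matches overlapped. A match is a string of letters and was not shown to be a bound site.

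Lcn2 encodes lipocalin 2, a secreted protein that binds bacterial siderophores and so withholds iron. In β-like cells Lcn2 stood at 26.8 CPM untreated, 516 under IL-1β, 32.1 under IFN-γ and 385 under the combination. The IL-1β and combined libraries were 19.3-fold (17.6 to 21.1) and 14.4-fold (13.2 to 15.7) above untreated, and IFN-γ alone gave 1.20-fold, or 0.972-fold with hormones left out of the totals. The untreated level rested on few cells: 1 of 1185 cells held 209 of the 537 Lcn2 UMIs, and 5 cells with 10 or more UMIs held 83.8% of them. An Lcn2 UMI was found in 30.9% of β-like cells under IL-1β, 23.0% under both, 3.44% under IFN-γ and 4.39% without cytokine. After thinning the shares were 27.1%, 18.7%, 2.69% and 1.74% in the same order. Without thinning and over all 4 libraries together, an Lcn2 UMI was found in 2.04% of 147 macrophage-like cells. Their median depth was 7770 UMIs against 11686 for β-like cells.

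Lcn2 in α-like cells started lower, with 1.16 CPM untreated, 342 with IL-1β, 4.90 under IFN-γ and 239 under both. Under IFN-γ 9 of the 11 UMIs were in 1 cell, and the level was 4.23-fold over untreated. Without the richest cell of each library untreated was at 0 and set to 3 UMIs, which leaves a lower bound of 0.257 and no direction. The untreated value was 1 UMI in 87 cells, and the ratio of the IL-1β to the untreated level, 295, has an interval of 52.8 to 11681. In δ-like cells Lcn2 had 84 UMIs in 7 of 52 cells with IL-1β and 19 in 4 of 36 cells with both, against 0 UMIs in 19 untreated cells. The highest Lcn2 of any class was in ductal-like cells, at 5295, 8013, 3737 and 14578 CPM, with 80%, 71.4%, 73.1% and 70% of these cells positive. Ductal-like cells thus carried Lcn2 in most cells without any cytokine, though they were few, 10 to 26 per library. When the 29 β-like and 13 α-like cells with at least 3 markers of a non-endocrine type were left out, Lcn2 under IL-1β stood at 520.2 CPM in β-like and 322 in α-like cells.

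Saa3 encodes serum amyloid A3, an acute-phase apolipoprotein made mainly outside the liver in mice. Its β-like level was 0.100 CPM untreated (2 UMIs), 47.5 with IL-1β, 0.0705 with IFN-γ (1 UMI) and 38.8 with both. Only 4.67% of β-like cells had a Saa3 UMI with IL-1β and 5.22% with both, in an order that turned after thinning, to 3.88% and 3.19%, with overlapping intervals. The richest 10 cells held 59.8% and 61.1% of all Saa3 UMIs. In β-like cells Saa3 was therefore close to absent without IL-1β and, with it, read in few cells at up to 72 and 102 UMIs per cell. In α-like cells the level was 2.31 CPM untreated from 2 of 87 cells, 68.3 with IL-1β from 7 of 321 cells and 16.5 with both from 1 of 156 cells. The share of α-like cells with a UMI was thus not higher, at 2.30%, 2.18% and 0.641% in that order. Outside the endocrine classes, 20 mesenchymal-like cells of the IL-1β library held 269 Saa3 UMIs, 265 of them in 1 cell.

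Lrg1 encodes leucine-rich α2-glycoprotein, a secreted protein that modifies TGF-β signaling. It was nearly silent in untreated β-like cells (1.10 CPM, 6 cells) and reached 132 CPM under IL-1β, 4.30 under IFN-γ and 44.6 under both. Positive β-like cells made up 20.6%, 2.66% and 13.2% of the 3 treated libraries, or 15.5%, 1.38% and 7.58% after thinning. Before thinning their median was 2, 1 and 2 UMIs, but under IL-1β the 34 cells with 10 or more UMIs held 57.6% of the Lrg1 molecules. In α-like cells it went from 0 UMIs (up to 3.47 CPM, the level of 3 UMIs) to 183 CPM with IL-1β, at least 52.7-fold higher, 3.56 under IFN-γ and 60.4 under both. PP-like cells held 232 CPM under IL-1β and 195 under both, in 7 of 30 and 4 of 46 cells.

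Fga, Fgb and Fgg encode the α, β and γ chains of fibrinogen, the clotting protein, which is assembled from equal numbers of the chains. The genes lie side by side on chromosome 3 within 42.1 kb, Fgg and Fga on the plus strand and Fgb on the minus strand. The chains were not read in equal amounts. In β-like cells with IL-1β, Fgb stood at 82.8 CPM, Fga at 36.1 and Fgg at 28.8, the last pair with adjoining intervals of 32.4 to 40.01 and 25.6 to 32.4. With both cytokines the 3 genes were at 28.6, 12.2 and 12.1 CPM, and untreated they were at 6.93, 1.45 and 2.94. In that untreated library 1 cell held 110 of the 139 Fgb UMIs and 23 of the 29 Fga UMIs were also in 1 cell. Without the richest cell of each library, Fgb under IFN-γ went from 0.672- to 2.73-fold of untreated.

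α-like cells differed from β-like cells in the chain they carried. Fgb was present without cytokine, at 94.9 CPM in 12 of 87 cells, and stood at 256 with IL-1β, 129 under IFN-γ and 429 under both. Fga in α-like cells was 0 UMIs untreated, 7 with IL-1β, 0 under IFN-γ and 2 under both. With IL-1β this was 3.25 CPM, against 36.1 in β-like cells. Fgg in α-like cells reached 12.5, 10.7 and 15.8 CPM in the 3 treated libraries from 1 UMI in the untreated one. After thinning, untreated was at 0 and set to 3 UMIs, and the folds over it were at least 1.62, 1.25 and 1.21. The α-like cells therefore held Fgb with little Fgg and almost no Fga in every library. PP-like cells held 43.8, 753, 263 and 658 CPM of Fgb, more than α- and β-like cells in the 3 treated libraries, with a UMI in 36.7%, 56.7%, 62.1% and 50% of 30, 30, 58 and 46 cells. In δ-like cells Fgb was 10 UMIs in 1 cell with IL-1β, 1 UMI under IFN-γ and 0 in the other libraries. Neither the 147 macrophage-like nor the 133 endothelial-like cells held a UMI of any of the 3 chains at their depths. A count of 3 cells would be 2.04% and 2.26% of these classes.

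Chil1 encodes chitinase-3-like 1, a secreted chitin-binding lectin without enzyme activity. Its β-like level was 1.99 CPM untreated, 32.1 with IL-1β, 0.846 under IFN-γ and 12.9 under both. It was the most evenly spread of the low genes, in 12.4% of β-like cells with IL-1β and 8.33% with both at a median of 1 UMI, with 2 cells of 10 or more UMIs in each. After thinning these shares were 7.57% and 3.83%. Like Fga, Chil1 was scarce in α-like cells, which held 5 UMIs with IL-1β and 0 in each other library. The 30 PP-like cells with IL-1β held 2 Chil1 UMIs in 1 cell. They held 4 Fga UMIs in 3 cells, or 17.5 CPM (4.77 to 44.8), so Fga was not confined to β-like cells.

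Steap4 encodes a membrane metalloreductase that reduces iron and copper at endosomes and the cell surface. In β- and α-like cells of the 2 libraries with IL-1β it was the gene read in the largest share of cells. Untreated β-like cells held 0.598 CPM (12 UMIs in 5 of 1185 cells), and the treated libraries held 355 CPM (IL-1β), 1.83 (IFN-γ) and 201 (both). With IL-1β 60.1% of β-like cells had a Steap4 UMI and with both 59.1%, or 51.7% and 37.9% after thinning. The fold over untreated was 593 (339 to 1148) with IL-1β and 336 (192 to 651) with both. No single cell held more than 1.53% of the Steap4 UMIs of these libraries, and the count did not rest on a few cells.

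Steap4 was also read in other cell types. α-like cells held 6.94, 658, 10.7 and 494 CPM, with 71.7% of cells positive under IL-1β and 74.4% under both. In PP-like cells it was 350 CPM with IL-1β and 223 with both, and in δ-like cells 147 and 33.7. Ductal-like cells had 103 CPM with IL-1β and 73.3 with both, in 8 of 21 and 5 of 10 cells. In macrophage-like cells 1 UMI was read in 147 cells and in endothelial-like cells 5 UMIs in 133.

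Hamp encodes hepcidin, the peptide hormone that binds the iron exporter ferroportin and leads to its degradation. It was the most abundant of the 10 genes in α-like cells of the libraries with IL-1β. α-like cells held 71.7 CPM untreated, 1760 with IL-1β, 40.1 under IFN-γ and 1622 under both, and β-like cells held 0.0498 (1 UMI), 182, 0.493 and 174. Positive α-like cells were 12.6%, 49.5%, 8.57% and 53.8% of the libraries, and positive β-like cells 0.0844%, 15.3%, 0.235% and 19.0%. After thinning, 13.4% of β-like cells were positive under IL-1β and 13.4% under both, and 48.4% and 49.0% of α-like cells. Of the macrophage-like cells of all 4 libraries together 0.680% (0.0172 to 3.73) had a Hamp UMI, below the interval of untreated α-like cells (6.48 to 21.5). Neither share was thinned, and the median depths were 7770 and 10870 UMIs. Among positive α-like cells the median was 14 UMIs with IL-1β and the highest 137, while among positive β-like cells the median was 4.

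The α-like Hamp levels were 24.5-fold (19.1 to 32.1) above untreated with IL-1β and 22.6-fold (17.6 to 29.6) with both, and IFN-γ alone gave 0.558-fold (0.399 to 0.784). The β-like ratios to 1 untreated UMI were 3645 (653 to 144040) and 3481 (624 to 137537), which the single molecule leaves wide. PP-like cells held 556 CPM of Hamp with IL-1β and 339 with both. δ-like cells held 2 UMIs untreated and 0 in the 3 treated libraries, where 3 UMIs in the IL-1β library would be 10.8 CPM. Hamp2, the near-identical neighbor of Hamp, was read at 1 UMI in β-like and 5 UMIs in α-like cells over all libraries, and reads shared by both genes may not have been counted.

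Hp encodes haptoglobin, which binds free hemoglobin and is a main acute-phase product of the liver. It was not part of the pattern in these cells: 2 UMIs were read among 7471 kept cells, 1 in a β-like and 1 in an α-like cell of the IL-1β library, and 3 among all 12571 barcodes. In untreated β-like cells the count of 0 allows a level of up to 0.150 CPM, that of 3 UMIs.

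Because 1 UMI stands for 1 captured molecule at its 3′ end, levels of different genes can be ordered without dividing by length. In β-like cells with IL-1β the order was Lcn2, Steap4, Hamp, Lrg1, Fgb and Saa3, each separated from the next by its counting interval, followed by Fga, Chil1 and Fgg, whose neighboring intervals overlapped. In α-like cells with IL-1β it was Hamp, Steap4, Lcn2, Fgb, Lrg1, Saa3 and Fgg. Lcn2 thus led in β-like cells and came after Hamp and Steap4 in α-like cells, where Hamp led.

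The genes also differed in how their molecules were distributed over cells, shown in the plot of cells by UMIs. The variance over the mean of UMIs per thinned cell would be about 1 if molecules were scattered at random, and its median over 6953 genes in the IL-1β β-like cells was 1.04. Lcn2 had 15.5, a value exceeded by 11 of those genes, Fgg 13.8, Lrg1 12.5, Hamp 11.4, Saa3 8.53, Fgb 6.78, Fga 4.02, Steap4 3.62 and Chil1 2.38. In α-like cells with IL-1β, Hamp had 23.3, exceeded by 8 of 7063 genes, Saa3 21.0 and Lcn2 20.1. Lcn2 and Hamp were therefore carried by a rich minority, 13.4% of β-like cells with 10 or more Lcn2 UMIs holding 87.0% of its molecules, and 29.6% of α-like cells with 10 or more Hamp UMIs holding 93.2%. The overlap of the cells with 10 or more UMIs, called rich here, varied by pair of genes and by library. Of 155 and 168 β-like cells rich in Lcn2 under IL-1β and under both, 10 and 18 were also rich in Hamp, where 58 of 1157 and 90 of 1284 of all β-like cells were. Of 31 and 16 β-like cells rich in Fgb, 12 and 0 were also rich in Steap4, as were 103 and 65 of all β-like cells. Hamp-rich cells were 95 of 321 and 51 of 156 of all α-like cells, 20 of 42 and 6 of 19 of those rich in Steap4, and 6 of 24 and 7 of 10 of those rich in Lcn2. With IL-1β 26.6% of β-like cells were rich in at least 1 of the genes.

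**Figure D2:**
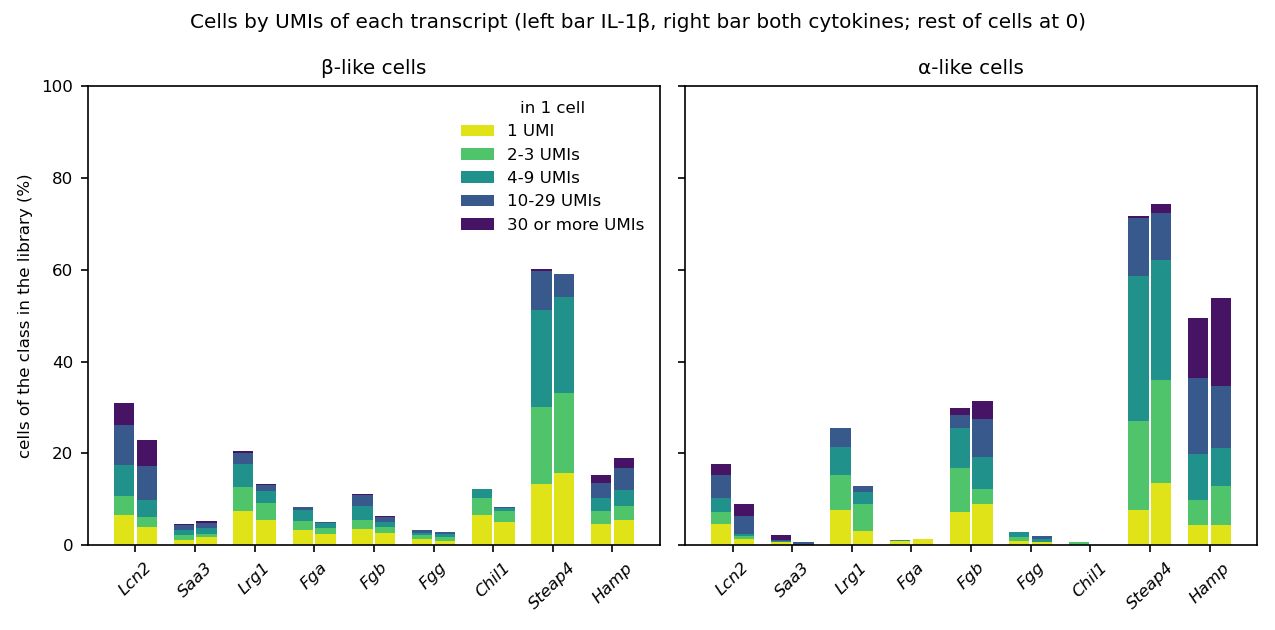
Share of β-like (left) and α-like (right) cells by the number of UMIs of each gene in 1 cell, for the IL-1β library (left bar) and the library with both cytokines (right bar). Steap4 was read in the most β-like cells (60.1% and 59.1%), mostly below 10 UMIs, while the cells with Lcn2 and, in α-like cells, Hamp often held 10 or more.

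Counted together after thinning, 72.6% of the 1083 β-like cells under IL-1β held a UMI of at least 1 of the genes and 39.6% of at least 2, against 3.14% and 0.436% of 1148 untreated cells. With both cytokines these shares were 60.1% and 24.7% of 1254 cells. Among α-like cells 90.7% and 60.9% of 289 had at least 1 and at least 2 with IL-1β, and 84.8% and 52.3% of 151 with both. Few β-like cells held many of the genes, with 5 or more in 1.48% under IL-1β and in 0.239% under both.

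Pairs of genes met in the same β-like cells unequally. Each gene was looked for in cells with and without each other gene, so every pair was counted in both directions. In 22 of 72 such comparisons in the IL-1β library the 2 binomial intervals were apart. The gene was then always more frequent where the other was found. Pairs of other genes were not counted in this way, so the counts here and below are not shown to be particular to these genes. The fibrinogen chains were among the pairs with separate intervals. Fgb was found in 41.8% (29.8 to 54.5) of 67 cells with Fga and in 6.89% (5.41 to 8.62) of 1016 cells without it. Fga was found in 33.3% (15.6 to 55.3) of 24 cells with Fgg and in 5.57% (4.27 to 7.13) of 1059 without. Lrg1 was found in 34.3% of 67 cells with Fga against 14.3% of 1016 without, in 40.8% of 98 with Fgb against 13.0% of 985 without, and in 12.5% (2.66 to 32.4) of 24 with Fgg against 15.6% of 1059 without. The intervals were apart for Fga and Fgb and overlapped for Fgg. In the combined library the intervals were apart for Fgg, with Lrg1 in 23.1% (8.97 to 43.6) of 26 cells with Fgg against 7.25% (5.86 to 8.84) without. They overlapped for Fga and Fgb, though Lrg1 was again more frequent beside them, in 15.4% against 7.33% and in 17.8% against 7.20%. Without thinning they were apart for all 3 chains in that library. After thinning, Fga was apart there with Fgb and with Fgg, as under IL-1β. Fgb was found in 7.69% (0.946 to 25.1) of cells with Fgg against 3.50% (2.55 to 4.69) without.

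Lcn2 was found in 26.9% of β-like cells with Fga and in 27.1% of those without, and none of its pairings in the thinned IL-1β library had separate intervals. Without thinning it was apart with Steap4, found in 71.5% of cells with Lcn2 and 54.9% without, and with Hamp, in 20.4% and 13.0%, and the cells with Lcn2 were deeper, with a median of 9252 against 8025 UMIs. In the combined library 11 of 72 comparisons were apart, among them Lcn2 in 23.2% (19.4 to 27.2) of 475 cells with Steap4 against 15.9% (13.4 to 18.7) of 779 without. Without thinning the counts were 35 of 72 in the IL-1β and 28 of 72 in the combined library. In α-like cells 1 of 20 and 0 of 20 thinned comparisons were apart, with 289 and 151 cells. Cells of a library share its depth and its free RNA, and total RNA per cell was equalized by thinning and not otherwise; what part these had in the pairings was not tested. Cells with Nos2, the inducible nitric oxide synthase, held Steap4 more often in both libraries, 68.5% of 248 against 46.7% of 835 under IL-1β and 47.6% of 759 against 23.0% of 495 in the combined library. Lcn2 was likewise more frequent beside Nos2, in 35.5% against 24.6% under IL-1β and 22.3% against 13.1% in the combined library, and there Hamp was found in 17.8% against 6.67%. Chil1 was found in 12.9% against 5.99% under IL-1β. For Lrg1, Fga, Fgb, Fgg and Saa3 the intervals overlapped in both libraries. Fga and Saa3 were more frequent beside Nos2 in both, and the direction for Lrg1, Fgb and Fgg differed between the libraries. Lrg1 was in 15.3% against 15.6% under IL-1β and 7.91% against 7.07% under both.

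**Figure D3:**
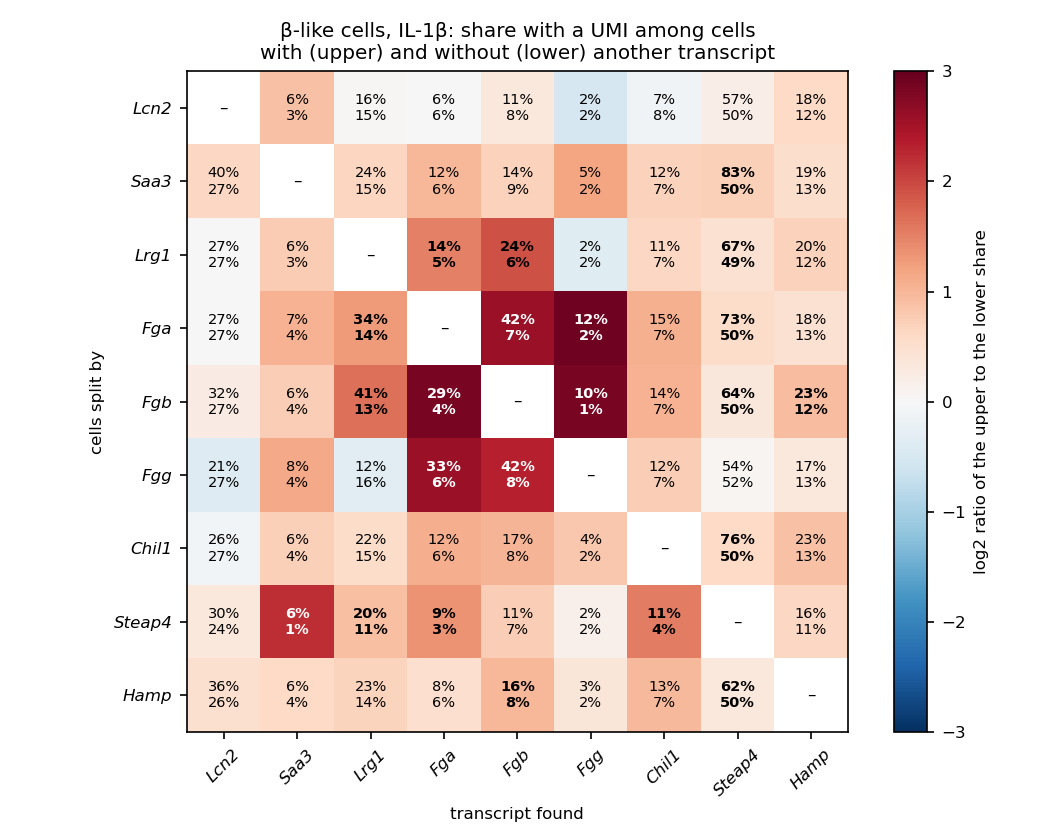
Share of β-like cells under IL-1β, thinned to 4000 UMIs, with a UMI of the gene in each column, among cells with (upper number) and without (lower number) the gene of the row; color is the log2 ratio and bold marks intervals that do not overlap. The fibrinogen genes Fga, Fgb and Fgg form the darkest block, and the Lcn2 row and column are pale.

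Adding IFN-γ to IL-1β was compared within each cell type. In β-like cells 0 of 9 genes were at least 2-fold higher with both cytokines than with IL-1β alone, against 3.4% of 12814 genes, and 5 of 9 were at least 2-fold lower, against 10.7%. These were Lrg1 (0.339-fold), Fga (0.337), Fgb (0.345), Fgg (0.420) and Chil1 (0.403). Steap4 was at 0.567-fold and Lcn2 at 0.746, while Saa3 (0.815) and Hamp (0.955, interval 0.900 to 1.01) moved less. Insulin and other hormone RNA made up 22.3% of UMIs in the β-like cells under IL-1β and 33.6% under both, and the median gene was at 0.789-fold in this comparison. Relative to the median gene the 5 lower genes were at 0.427- to 0.532-fold, 3 of them at or below 0.5. On that scale Steap4 was at 0.718-fold, Lcn2 at 0.945, Saa3 at 1.03 and Hamp at 1.21, so the order of these 4 by distance from 1 depends on the scaling. With hormones left out of the totals all 5 were between 0.395- and 0.491-fold, and after thinning 4 were at least 2-fold lower, with Fgg at 0.504-fold.

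The same addition left α-like cells with another order. Lrg1 was again lower, at 0.330-fold (0.258 to 0.419), and Saa3 at 0.242-fold rested on 7 cells and 1 cell. Hamp was at 0.922-fold, Steap4 at 0.751 and Lcn2 at 0.698. Fgb went the other way, at 1.68-fold (1.49 to 1.89), from 14 of 321 cells with 10 or more UMIs under IL-1β to 19 of 156 under both. The share of α-like cells with an Fgb UMI was 29.9% and 31.4%, or 26.0% and 26.5% after thinning. Positive cells held a median of 3 and 6 UMIs, in libraries with a median of 6430 and 8463 UMIs per α-like cell. The fold was 1.59 after thinning and 1.29 from the mean of per-cell shares. Fgg was at 1.26-fold in α-like cells, with an interval of 0.685 to 2.30 that includes 1, and ran from 0.457 to 1.27 over 12 alternatives. The 2 cell types shared neither replicates nor a test, and their difference in Fgb was not tested.

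**Figure D4:**
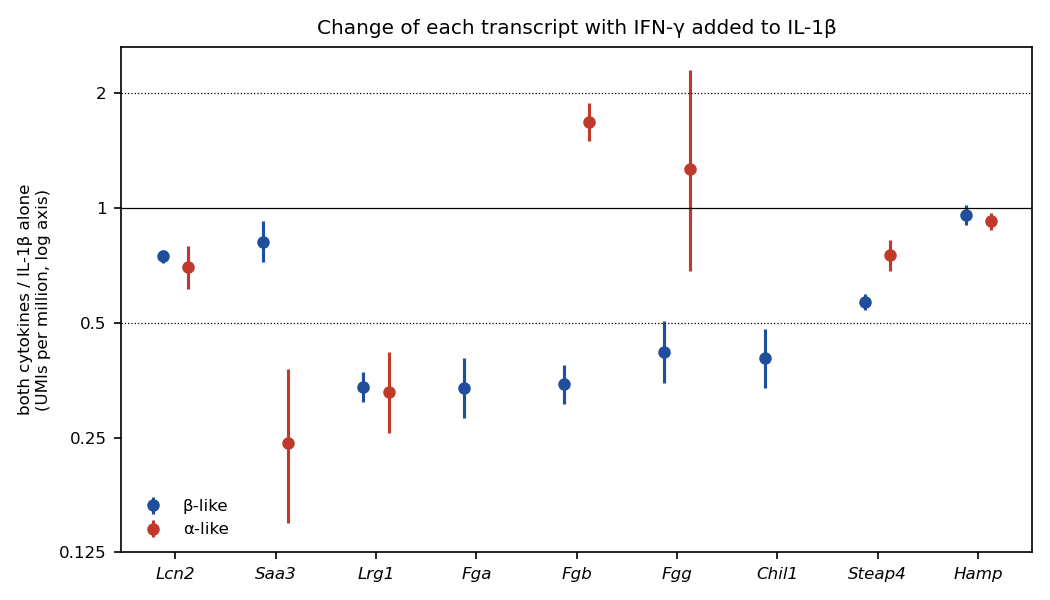
Level with both cytokines over the level with IL-1β alone (log axis) in β-like and α-like cells, with 95% intervals from counting. Genes are drawn where both libraries had UMIs and the pair had at least 10. Dotted lines mark 2-fold. Fgb lies at 0.345 in β-like and 1.68 in α-like cells, Lrg1 near 0.33 in both, and Hamp near 1 in both.

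With IFN-γ alone 4 of 7 comparable genes differed at least 2-fold from untreated in β-like cells, 2 of them higher and 2 lower, against 7.61% and 1.67% of 13168 genes. The count of higher genes was 1 after thinning and 3 without the richest cell. With every kept cell included, Lrg1 was 3.92-fold (2.37 to 6.71) above untreated in 34 of 1279 β-like cells, and Steap4 3.06-fold (1.49 to 6.67) in 9 cells. Of their untreated UMIs, 12 of 22 and 6 of 12 were in 1 cell each. Fga was at 1 UMI against 29 and Chil1 at 0.424-fold (0.203 to 0.825), and of the untreated UMIs 79.3% of Fga and 55.0% of Chil1 were in 1 cell each. In α-like cells the 2 genes at 2-fold were Lcn2, with 9 of 11 UMIs in 1 cell, and Fgg, with 24 UMIs in 4 cells. Without the richest cell of each library untreated was at 0 and set to 3 UMIs for both genes, and their folds of 0.257 and 1.80 are lower bounds. δ-like cells could be compared for few genes: 3 of 4 were at least 2-fold higher with IL-1β (Lcn2, Lrg1 and Steap4) against 14% of 5892 genes, 2 of 2 with both (Lcn2 and Lrg1) against 15.1% of 5396. With both, 84.2% of the Lcn2 and 72.7% of the Lrg1 UMIs were in 1 cell each, and the count was 1 after thinning and 0 without the richest cell. All these δ-like genes had at most 1 untreated UMI and passed the minimum only through the treated library, so these counts support nothing. With IFN-γ no gene had 10 UMIs, against 10.6% of 7704 genes being 2-fold higher. The 80% rule left 19 untreated δ-like cells and classed 36 further somatostatin-led cells of that library as mixed. Among the cells classed so, 83 cells of the IL-1β library held 412 CPM of Lcn2, 169 of Lrg1 and 245 of Steap4, with Hamp at 26.7.

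Other genes of the acute-phase response were taken from a list of 29 that excludes the 10. In β-like cells 17 of the 29 had at least 10 UMIs over the IL-1β and untreated libraries. Of these 14 were at least 2-fold higher and 0 lower, against 18.7% of all genes tested being higher. The median was 12.1-fold beside 1.26-fold over all genes tested. With hormones left out of the totals these were 13 higher and 1 lower. Of the 8 genes with at least 10 untreated UMIs, whose inclusion did not need the treated library, 5 were higher and 0 lower with IL-1β and 5 and 0 with both. Their medians were 3.40- and 2.69-fold beside 1.23 and 0.970 over all such genes. Of all such genes 15.4% were higher with IL-1β and 9.56% with both, which holds for the β-like counts of this kind below too. Of the 16 that could be compared with both cytokines 13 were higher and 0 lower, against 12.7% of all genes being higher, with a median of 11.2-fold beside 0.992. With IFN-γ 2 of 9 were higher and 1 lower, against 7.61% and 1.67% of all genes, with a median of 1.10-fold beside 1.23. Saa1 and Saa2, the liver-type serum amyloids, were at 0 untreated and at 18.0 and 7.34 CPM with IL-1β, in 1.04% and 0.519% of β-like cells. Serpina3n, a serine protease inhibitor, was at 1.35 and 47.8 CPM, and Cp, which encodes the copper oxidase ceruloplasmin, at 0.150 and 7.54. Serpina3g, another inhibitor of the family, was highest in the combined library at 11.7 CPM, against 1.81 under IL-1β and 0 in the other libraries.

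In α-like cells 10 of the 29 could be compared with IL-1β, 7 of them at least 2-fold higher and 1 lower, with a median of 8.49-fold beside 0.953 over all genes. With both cytokines 7 of 10 were higher and 0 lower, and with IFN-γ 1 of 5 was higher and 0 lower, or 1 lower with hormones left out, against 10%, 10.4% and 8.32% of all genes being higher under IL-1β, both and IFN-γ. Of the 3 genes with at least 10 untreated UMIs, however, 0 were higher in any treatment. Cp was more abundant in α-like cells, at 0 untreated, 64.5 CPM with IL-1β and 40.2 with both. Saa1 and Saa2 had 0 UMIs in α-like cells of every library, and 3 UMIs would be 3.47 CPM untreated and 1.39 with IL-1β. Of 11 negative acute-phase genes, which the liver lowers in inflammation, 6 could be compared in β-like cells with IL-1β, with 1 (Trf) at least 2-fold higher and 0 lower, or 1 higher and 1 lower with hormones left out of the totals. With both 5 could be compared, with 1 higher (Fetub) and 1 lower (Ttr). Over all genes 18.7% were at least 2-fold higher with IL-1β and 12.7% with both, so these counts of higher genes are near the general share. The medians were 1.46- and 0.816-fold beside 1.26 and 0.992 over all genes. Of the 4 with at least 10 untreated UMIs, 0 were higher with IL-1β and 1 with both. Ttr, which encodes the thyroxine and retinol-binding-protein carrier transthyretin, was at 199 CPM untreated, 104 with IL-1β, 203 under IFN-γ and 90.4 under both. In α-like cells Ttr stood at 8912 CPM untreated and 8887 with both. There 1 of 4 of these genes (Trf) was at least 2-fold higher with both, against 10.4% of all genes, and 1 (Apoa2) lower.

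The list of acute-phase regulators held 29 receptors, kinases and transcription factors. In β-like cells 17 of 25 were at least 2-fold higher with IL-1β and 0 lower, with a median of 2.86-fold, and with both 16 of 24 were higher and 4 lower, with a median of 3.03-fold. Over all genes 18.7% and 12.7% were this high, with medians of 1.26- and 0.992-fold. With hormones left out of the totals the counts were 13 higher and 2 lower with IL-1β, and 14 and 4 with both. Of the 21 genes with at least 10 untreated UMIs, 14 were higher and 0 lower with IL-1β, and 13 and 4 with both. Cebpd, a C/EBP transcription factor of the acute phase, was at 58.3, 923, 101 and 670 CPM in β-like and 35.9, 906, 43.2 and 1448 in α-like cells, in the order untreated, IL-1β, IFN-γ and both. Cebpb was at 61.8, 317, 110 and 214 in β-like and 54.4, 497, 57.4 and 678 in α-like cells. By these levels both factors were lower in the combined library than under IL-1β in β-like cells, and higher in α-like cells. The median gene was itself at 0.789-fold in β-like and 0.912-fold in α-like cells in this comparison. The β-like differences are therefore smaller relative to the median gene.

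Stat3, the transcription factor behind IL-6-type signals, was at 148, 331, 214 and 455 CPM in β-like cells, and Nfkbiz, an inhibitor-like partner of NF-κB, at 14.3, 192, 38.5 and 170. Socs3, a feedback inhibitor of that pathway, was at 13.2, 56.0, 20.9 and 39.3. Il6 itself was read at 5 UMIs or fewer per library in β-like cells, and its receptor Il6ra at 73.2, 48.8, 63.5 and 36.3 CPM, with the shared subunit Il6st at 18.7, 59.99, 20.3 and 47.8. Lif and Osmr, a ligand and a receptor that use Il6st, had 0.0498 CPM each in untreated β-like cells, and reached 3.22 and 7.24 with IL-1β and 5.61 and 3.97 with both. Il1r1, the signaling receptor of IL-1, was at 240, 252, 223 and 93.6 CPM.

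The partners of these proteins and the iron genes were read in the same cells. Of 18 receptors and partners, 5 of 8 in β-like cells were at least 2-fold higher with IL-1β and 0 lower, and with both 4 of 8 higher and 1 lower. Over all genes 18.7% and 12.7% were this high. The medians were 3.39-fold and just under 2-fold beside 1.26 and 0.992 over all genes. With hormones left out the counts were 4 higher and 1 lower with IL-1β, and 4 higher and 2 lower with both. Of the 5 genes with at least 10 untreated UMIs, 2 were higher with IL-1β and 1 with both, with medians of 0.810- and 0.756-fold. Slc40a1, which encodes ferroportin, the target of hepcidin, was the lower gene under both, at 25.3, 20.5, 34.1 and 10.0 CPM. Slc22a17, the proposed receptor of lipocalin 2, was at 24.7, 16.0, 24.6 and 12.7. Tlr2, a receptor of serum amyloid A, was at 9.92, 102, 11.6 and 161, and Icam1, a ligand of fibrinogen, at 0.399, 138, 3.53 and 403. In α-like cells 2 of 6 were higher and 1 lower both with IL-1β and with the 2 cytokines, or 2 lower with the 2 cytokines when hormones were left out, against 10% and 10.4% of all genes being higher. The medians were 1.46- and 0.976-fold beside 0.953 and 0.887, and of the 4 genes with at least 10 untreated UMIs 0 were higher.

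Of 13 iron-handling genes 4 of 11 were at least 2-fold higher with IL-1β in β-like cells and 0 lower, and 4 of 12 higher and 0 lower with both, against 18.7% and 12.7% of all genes being higher. Of the 11 with at least 10 untreated UMIs, 4 were higher with IL-1β and 4 with both. The medians were 1.61- and 1.15-fold beside 1.26 and 0.992 over all genes, and with hormones left out the IL-1β count was 4 higher and 1 lower. The 4 genes were Slc11a2, which encodes the iron importer DMT1, at 12.8, 99.7, 15.2 and 76.8 CPM, Hmox1, the heme-degrading enzyme, at 44.3, 153, 29.6 and 104, and the Steap4 relatives Steap1, at 3.39, 30.9, 7.68 and 31.1, and Steap2, at 17.0, 84.7, 24.5 and 53.2. Of 13 near paralogs of the 10 genes, a list that shares Steap1, Steap2 and other genes with those above, 6 of 6 were at least 2-fold higher with IL-1β and 7 of 8 with both in β-like cells, or 5 and 6 with hormones left out, with medians of 7.04- and 3.01-fold beside 1.26 and 0.992 over all genes, of which 18.7% and 12.7% were this high. The 4 of them with at least 10 untreated UMIs were all higher with IL-1β and with both. Steap4 differed from Steap1 and Steap2 in its start, at 0.598 CPM untreated against 3.39 and 17.0.

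Markers of cells known for these proteins were read beside them. Of 13 neutrophil markers, 5 had a UMI in β-like cells with IL-1β and 8 were at 0; their summed level was 0.299, 55.8, 1.97 and 35.4 CPM, with S100a9 the most abundant at 38.0 with IL-1β. S100a8, S100a9 and Ltf gave 63, 378 and 112 of its 555 UMIs under IL-1β. These 3 genes reached 10 UMIs over the pair of libraries only through the treated library, so their folds are not counted. In α-like cells the sum was 0, 13.0, 0.890 and 7.91 CPM. Of 15 hepatocyte markers, 12 were at 0 in β-like cells of each treated library, and the summed level of 17.9, 27.5, 18.4 and 11.9 CPM was mostly Tat; 0 of 2 were at least 2-fold different in β-like cells in any treatment. The part of either cell type in the levels above was not tested.

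Genes with the most similar course were sought by Pearson's r of ln(CPM + 1) over the 12 sums of 4 libraries and 3 classes (β-, α- and δ-like), among 11364 genes, as a description in which all points of a library share its depth and treatment. Cxcl1, a neutrophil-attracting chemokine, was closest to Lrg1 (r = 0.972), Marcks to Steap4 (0.967), Il1f6, an IL-1 family cytokine, to Saa3 (0.961) and Acpp to Chil1 (0.960). Cpm was closest to Lcn2 (0.949), Zdhhc9 to Fgb (0.9502), B430010I23Rik to Fgg (0.941), Zc3h12d to Hamp (0.927) and Tnip3, an inhibitor of NF-κB signaling, to Fga (0.891). With a pseudocount of 10 in place of 1, between 1 and 2 of the 3 closest genes stayed for every member. Among the genes themselves Lcn2 and Lrg1 were most alike (0.941), then Lrg1 and Steap4 (0.911), Fga and Chil1 (0.885), and Hamp and Saa3 (0.841), while the neighboring genes Fga and Fgb had 0.200.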

How the data were processed

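Droplet scRNA-seq was done on 4 islet cultures. The authors made the deposited UMI counts with Cell Ranger on build mm10, per the processing notes of the submitters, without normalization; the file headers give a software version of 3.0.0. The labels and the paper name different versions of the reagent kit. The 10 genes and the gene lists were chosen with earlier results of these data known, and Trf, S100a8 and Nos2 were named after their values were seen. The other genes named were up to 4 per list with the largest change in β-like cells with both cytokines, and regulators picked by name.

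Non-endocrine cells had under 10% hormone UMIs and at least 3 markers of 1 type. UMIs were summed per class and library. A library at 0 was set to 3 UMIs in folds. These are then lower bounds if the reference library was at 0, and upper bounds if the library compared with it was. Folds needed 10 UMIs over the pair, and no test was run. Fold intervals are exact conditional binomial. Variance over mean used genes of at least 0.05 UMIs per thinned cell. Doublets were not removed; Scrublet marked 75 of 7471 cells (1.00%). Gene positions are from GENCODE M21 (GRCm38), which matched 30934 of 31053 identifiers. Python 3.11.15, numpy 2.4.6, scipy 1.17.1, pandas 2.3.3, scanpy 1.11.5 and matplotlib 3.10.9 were used, and the fold calculation was tested on simulated data. Alternatives concerned the gene and mitochondrial limits, the hormone share, thinning, the totals, the minimum of UMIs, the fold, doublets and cells with markers of other types. Those with no limit on the leading hormone, without the cell richest in each gene, and with 10 UMIs in the untreated library alone were added after seeing the data.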

Additional observations from a re-analysis of the deposited data

Results flagged for a closer look

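Fgb went opposite ways in different endocrine classes with counting intervals that lay on opposite sides of 1, in 3 of 45 comparisons of class pairs. Under IFN-γ it was at 0.672-fold of untreated in β-like cells and 1.36-fold in α-like cells, and the former was 2.73-fold without the richest cells while the latter was 0.827-fold without the upper gene limit. With both cytokines it was at 0.345-fold of IL-1β alone in β-like cells, 1.68-fold in α-like cells, and at most 0.352-fold in δ-like cells, where the comparison is 10 UMIs of 1 cell with 0 UMIs. Over 12 alternatives the β-like value ran from 0.286 to 0.404 and the α-like value from 1.29 to 1.98. Fgg after adding IFN-γ was at 0.420-fold in β-like and 1.26-fold in α-like cells, but the α-like interval of 0.685 to 2.30 includes 1. These differences were not tested.

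The 5100 barcodes outside the limits on genes and mitochondrial UMIs, which enter the values above only where a limit was lifted or loosened, held 9 of the genes above the untreated level of such barcodes in both libraries with IL-1β. Under IFN-γ Lcn2 was below it, at 166 CPM, as were Fga and Chil1, at 0.567 each. Lcn2 stood there at 255 CPM untreated, 1639.9 under IL-1β and 1850.04 under both. Lrg1 was at 2.71, 109 and 56.7 CPM, Steap4 at 1.52, 286 and 181, and Saa3 at 0.181, 52.2 and 22.6. Hamp was at 1.16 CPM untreated, 209 under IL-1β, 4.91 under IFN-γ and 243 under both, and Fgb at 13.5, 155, 27.0 and 74.2. Without cytokine, under IL-1β and under both, Fga was at 0.794, 20.05 and 7.17 CPM, Fgg at 2.46, 13.2 and 5.74, and Chil1 at 1.01, 11.2 and 7.89.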

How the results depend on the processing

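No paired analysis was possible because each condition was 1 library. For 44 folds over untreated, 528 values were recomputed, of which 514 lay on the same side of 1 and 513 on the same side of 2 as reported. Folds with a library at 0 UMIs entered these counts at the value for 3 UMIs. Lcn2 in α-like cells under IFN-γ went from 4.23-fold to a lower bound of 0.257 without the richest cell of each library. That cell held 9 of 11 UMIs under IFN-γ, and untreated was left at 0 UMIs, so no direction is shown. Saa3 in α-like cells under both cytokines went from 7.14-fold to at most 0.943 when the leading hormone had to reach 90%. There the treated library was at 0 UMIs and set to 3. Of the counts of genes at least 2-fold above untreated, that of δ-like cells under both cytokines, 2 as reported, was 4 with a hormone share of 60% or no limit, 1 with 90%, 1 after thinning, 1 from the mean of per-cell shares, 1 at a fold of 3 and 0 without the richest cell. That of δ-like cells under IL-1β, 3 as reported, was 1 with a share of 90% and 5 with no limit. Under IFN-γ the count of 2 was, in β-like cells, 1 after thinning and 3 without the richest cell, with no hormone limit or with no minimum of UMIs, and in α-like cells 0 after thinning and 1 without the richest cell. The 5 genes lower in β-like cells after adding IFN-γ became 4 after thinning, 6 at a fold of 1.5 and 0 at a fold of 3. The share of β-like cells with 2 or more genes was 48.3% under IL-1β and 42.5% under both without thinning. Apart from the alternatives' own construction, the cause was not tested. With hormones left out of the totals, β- and α-like levels were 1.20 to 1.73 times those reported. The 7 genes higher in α-like cells became 6 under IL-1β without the upper gene limit, after thinning or at a fold of 3. Under both cytokines they became 6 with a hormone share of 90% and 5 after thinning or without the richest cell. The folds of Fgg and Saa3 after thinning, and of Fgg without the richest cell, are lower bounds with untreated at 0 UMIs set to 3. They do not place these genes below 2-fold. The same holds under IFN-γ for Fgg after thinning, and for Lcn2 and Fgg without the richest cell. When 10 UMIs were asked of the untreated library alone, the counts were 7 of 7 in β-like cells under IL-1β and under both, but 2, 0 and 2 in α-like cells under IL-1β, IFN-γ and both, and 0 in δ-like cells. Untreated cells were few, 87 α-, 30 PP-, 20 ductal-, 19 δ- and 11 mesenchymal-like.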
